A study of Homo sapiens with 6 samples.

Results

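The genes described are 10 core cell-cycle genes, 7 cyclins (CCND1, CCND2, CCND3, CCNE1, CCNE2, CCNA2 and CCNB1) and 3 cyclin-dependent kinases (CDK2, CDK4 and CDK6), out of 19864 protein-coding genes on chromosomes 1 to 22 and X. They form a family listed by name, and the rule for their peaks uses no measured value. For each gene, a start peak is a peak that comes to 500 bp or closer to an annotated start of one of its transcripts (GENCODE release 29, build GRCh38). Distal peaks are those within 100 kb of its gene body that lie within 500 bp of no annotated start of any gene. The data came from K562, an established human leukaemia line labelled lymphoblastoid, which was grown in culture and received no treatment. Run-on sequencing (PRO-seq) records RNA polymerases caught in the act of transcription, and dREG reads the run-on signal on both strands to call active promoters and enhancers as peaks. There were 3 groups of 2 replicate libraries from separate passages of the same line, and each group had 1 peak list. PRO-seq 1M used a published protocol with 3 affinity purifications on 1M cells. The qPRO-seq groups used a streamlined protocol with 1 affinity purification, qPRO-seq 1M on 1M cells and qPRO-seq 250k on 250k cells. Libraries had 11 cycles of PCR from 1M cells and 14 from 250k cells, so cell number and PCR cycles cannot be told apart.

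Cyclins are the regulatory subunits that switch on cyclin-dependent kinases, and their rise and fall orders the cell cycle. D-type cyclins pair with CDK4 and CDK6 and begin the phosphorylation of the retinoblastoma protein in G1. E-type cyclins pair with CDK2 at entry into S phase, cyclin A2 serves S phase and G2, and cyclin B1 drives mitosis with CDK1. The D-type and E-type genes and the CDK4 and CDK6 pair are paralogs, and cell types differ in which of them they use.

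The lists held 38177 peaks (qPRO-seq 1M), 24707 (PRO-seq 1M) and 15562 (qPRO-seq 250k) on these chromosomes. They hold no read counts, so the depth behind them is unknown, and 1 list per group leaves no spread between replicates and no test between groups. Peaks are therefore described by their score percentile, the percent of peaks in the same list that scored lower. Percentiles of different lists rank a peak among different numbers of peaks and do not measure a change in transcription. The label of the line was checked against marker genes. Start peaks in all 3 lists were found for the erythroid markers GATA1, TAL1, KLF1 and EPOR and for the T lymphoid marker TCF7. EBF1, a B lymphoid marker, had one in both 1M lists, and PAX5, CD79A, POU2AF1, CD3D, CD3E, CD2 and LCK had none in any list.

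All 10 genes had a start peak in at least 2 lists. In PRO-seq 1M, 10 of 10 genes had one (100%, Wilson 95% interval 72.2 to 100), against 52.9% of all protein-coding genes. In qPRO-seq 1M, 9 of 10 did (90%, 59.6 to 98.2), against 54.5%, and the missing gene was CDK4. In qPRO-seq 250k, 10 of 10 did (100%, 72.2 to 100), against 44.0%. The intervals treat the 10 genes as a random draw, though they were listed by name, and cover no spread between replicates. They are no test against the protein-coding shares. The 9 genes with a start peak in all 3 lists compare with 43.1% of protein-coding genes. Among genes with a start peak, these ranked close to the rest. The median percentile of the top start peak was 81.0 for the genes in PRO-seq 1M against 76.4 for the 10503 protein-coding genes with one, 80.0 against 80.7 in qPRO-seq 1M and 69.8 against 68.2 in qPRO-seq 250k.

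**Figure D1:**
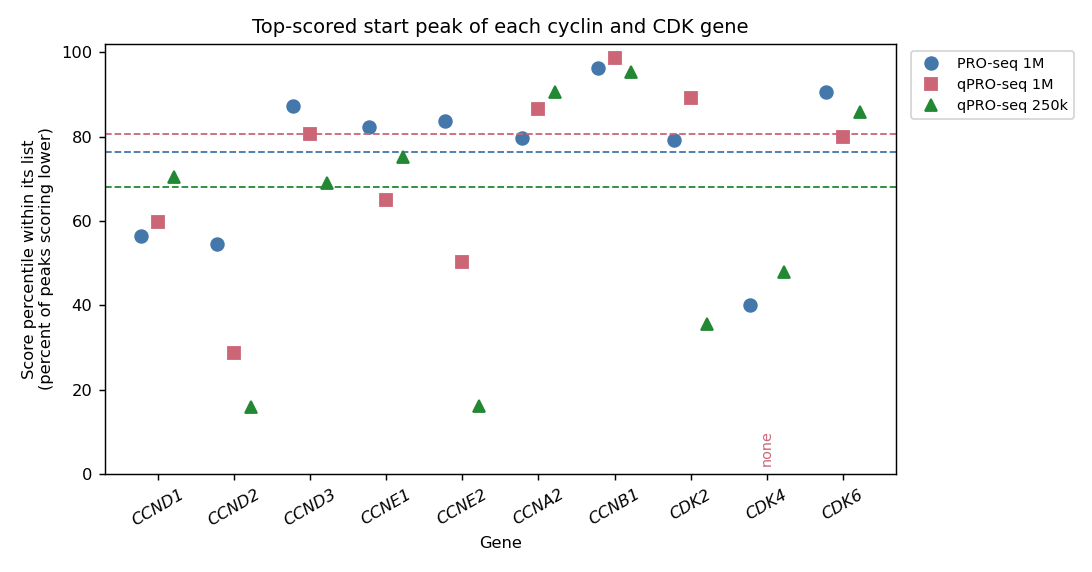
Score percentile (vertical axis, percent of peaks in the same list that scored lower) of the top-scored start peak of each gene in PRO-seq 1M (circles), qPRO-seq 1M (squares) and qPRO-seq 250k (triangles); dashed lines are the medians over all protein-coding genes with a start peak in that list. CCNB1 stands highest in each list, CDK4 has no qPRO-seq 1M peak, and CCND2 (15.8) and CCNE2 (16.0) are lowest in qPRO-seq 250k.

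Promoter sequences were taken from the RefSeq table (build GRCh38.p14), which gave 9 windows for 6 of the 10 genes (CCNA2, CCNB1, CCND3, CDK6, CDK4 and CCNE1). No window of CCND1, CCND2, CCNE2 or CDK2 was matched. The 250 bases before the RefSeq start are printed 5′ to 3′ along the gene for 4 windows that the results turn on, with motif matches in capitals. CCNB1 carries the highest-ranked start peak of the 10 genes in each list and CCNA2 the second in qPRO-seq 250k, the CCND3 window is the start near no other gene that had a peak in every list, and the CDK4 window is the one without a qPRO-seq 1M peak. The CCNA2 window is chr4:121823884-121824133 (minus strand), the CCNB1 window chr5:69166900-69167149 (plus), the CCND3 window chr6:41941809-41942058 (minus) and the CDK4 window chr12:57752311-57752560 (minus).
CCNA2: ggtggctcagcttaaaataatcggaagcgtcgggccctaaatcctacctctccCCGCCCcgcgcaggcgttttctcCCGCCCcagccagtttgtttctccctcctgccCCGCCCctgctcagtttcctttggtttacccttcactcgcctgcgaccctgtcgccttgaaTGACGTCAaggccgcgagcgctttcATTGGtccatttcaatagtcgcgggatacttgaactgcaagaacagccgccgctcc
CCNB1: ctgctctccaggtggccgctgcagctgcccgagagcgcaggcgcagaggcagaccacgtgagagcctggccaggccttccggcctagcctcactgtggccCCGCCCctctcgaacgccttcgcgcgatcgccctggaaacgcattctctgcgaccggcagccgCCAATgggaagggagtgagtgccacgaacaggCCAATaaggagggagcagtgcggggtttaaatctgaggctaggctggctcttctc
CCND3: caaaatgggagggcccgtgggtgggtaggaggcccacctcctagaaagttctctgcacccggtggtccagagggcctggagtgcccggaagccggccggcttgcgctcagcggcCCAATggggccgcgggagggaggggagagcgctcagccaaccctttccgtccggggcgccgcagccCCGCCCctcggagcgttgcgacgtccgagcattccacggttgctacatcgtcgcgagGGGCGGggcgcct
CDK4: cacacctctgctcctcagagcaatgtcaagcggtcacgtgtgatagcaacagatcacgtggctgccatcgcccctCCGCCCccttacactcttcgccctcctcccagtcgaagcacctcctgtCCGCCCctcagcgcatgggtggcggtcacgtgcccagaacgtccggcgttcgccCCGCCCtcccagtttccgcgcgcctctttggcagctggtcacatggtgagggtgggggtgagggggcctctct
The CCNA2, CCNB1 and CCND3 windows lay under peaks over all 250 bases in each list. The CDK4 window did so in qPRO-seq 250k and PRO-seq 1M, with 0 bases under a peak in qPRO-seq 1M.

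Motifs were searched on both strands of the 250 bases. CCAAT, bound by the factor NF-Y, matched 4 of the 9 windows of these genes against 32.0% of the 35116 windows in the table. Of these 4, the CCND3 window at chr6:41939206-41939455 had 0 bases under a peak in each list. CCAAT occurred at 87 and 55 bases before the RefSeq start in CCNB1, at 56 in CCNA2 and at 136 in the printed CCND3 window. Peak distances elsewhere count from GENCODE starts, which differ. Those at 69167010 (CCNB1), 121823933 (CCNA2) and 41941848 (CCND3) lie inside the printed windows. Both CCNB1 matches lie downstream of 69167010. GGGCGG, the GC box, matched 7 of 9 windows against 42.6%. There were 7 matches in CCNE1, 5 in the CCND3 window at chr6:42048689-42048938 and 3 each in CCNA2, CDK4 and CDK6. The printed CCND3 window had 2 and CCNB1 had 1. These windows were rich in G and C, at 58.8 to 81.2% against a median of 58% in the table, and the part of base composition in the GC box count was not tested. A cyclic AMP response element (TGACGTCA or TGACGTAA) matched only the CCNA2 window, 81 to 74 bases before the RefSeq start, against 2.00% of windows. The letters searched for E2F (TTTCGCGC, TTTGGCGC, TTTCCCGC or TTTGCCGC), for the cell cycle homology region (TTTGAA as well as TTCGAA), for a TATA box (TATAAA) and for GATA factors (AGATAA) matched 0 of the 9 windows. The shares over the table were 2.79%, 14.3%, 10.7% and 9.17%. Other spellings of these motifs were not searched, so the lack of a match does not show that such an element is absent. The searched motifs do not overlap one another in these windows.

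Among the D-type cyclins, all 3 paralogs had a start peak in every list as deposited, a call that CCND2 lost in shortened lists. CCND3 ranked first of them in both 1M lists and CCND2 last in each list. CCND1 (chr11:69641087-69654474, plus strand) had its start peak at percentile 56.4 in PRO-seq 1M (chr11:69640861-69641300), 59.8 in qPRO-seq 1M and 70.5 in qPRO-seq 250k. The centres lay 5, 13 and 33 bp downstream of the nearest annotated start, and no other gene starts there. In qPRO-seq 1M, a pair of further peaks at percentiles 19.5 and 4.68 lay near the start of a retained-intron transcript inside the gene. Of the protein-coding genes with a start peak, 24.0%, 22.6% and 53.1% had a lower top peak than CCND1 in PRO-seq 1M, qPRO-seq 1M and the 250k list.

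CCND2 (chr12:4273772-4305350, plus strand) had a peak at its first start at percentile 54.6 in PRO-seq 1M, 28.6 in qPRO-seq 1M and 15.8 in qPRO-seq 250k. These were at chr12:4273501-4273900, chr12:4273521-4273810 and chr12:4273591-4273810, and they narrowed from 400 to 290 and 220 bp. Of the protein-coding genes with a start peak, 22.4% in PRO-seq 1M, 6.40% in qPRO-seq 1M and 6.12% in qPRO-seq 250k had a lower top peak. CCND2 had no start peak in qPRO-seq 1M at equal list lengths (each list reduced to its 15562 top-scored peaks), and none in either qPRO-seq list among peaks at or above the median score. The GENCODE gene AC008012.1 starts 10 bp away on the same strand, so the peak cannot be given to CCND2 alone. A second, weaker peak in qPRO-seq 1M (percentile 9.14) lay at a downstream start, where the antisense gene CCND2-AS1 also begins.

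CCND3 (chr6:41934933-42050357, minus strand) has 18 distinct annotated starts in groups at both ends of the gene. At a downstream group of 4 starts, 1 peak per list lay at percentile 87.3 in PRO-seq 1M (chr6:41941661-41942430), 75.3 in qPRO-seq 1M and 69.1 in qPRO-seq 250k. Its centres were 122, 92 and 82 bp before the nearest start, and no other gene starts there. At the far 5′ end, a pair of abutting peaks stood in every list, at percentiles 52.9 and 60.7 in PRO-seq 1M, 76.9 and 80.6 in qPRO-seq 1M, and 46.7 and 48.3 in qPRO-seq 250k. TAF8, which encodes a subunit of the general transcription factor TFIID, starts 156 bp away on the opposite strand. The inner peak spans the first CCND3 start, and the outer one lies upstream of it, on the TAF8 side. The group with most of the annotation, 10 of the 18 starts and 15 of 23 transcripts, lies just inside that end and had a peak in PRO-seq 1M alone (chr6:42048551-42048960, percentile 50.1). The downstream start was thus the one near no other gene with a peak in every list. It outranked the 5′ pair in qPRO-seq 250k and PRO-seq 1M but not in qPRO-seq 1M.

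**Figure D2:**
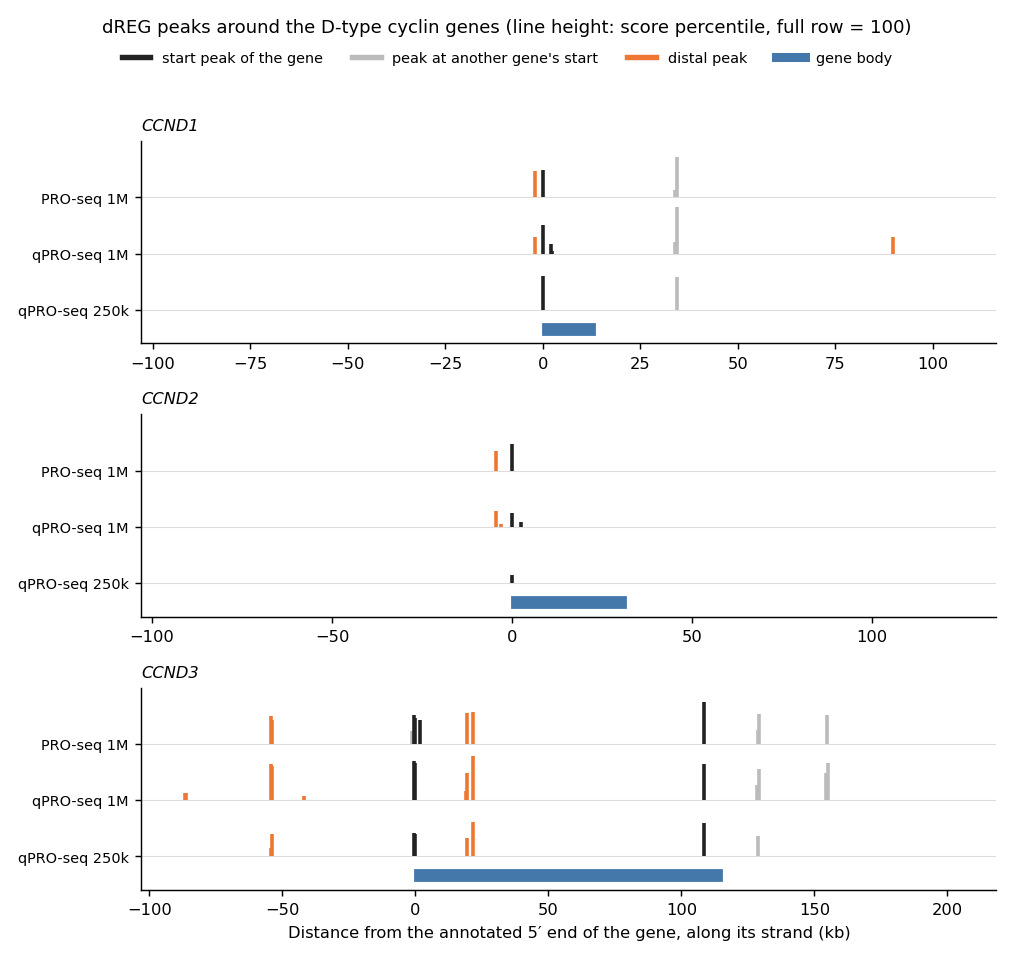
Peaks around CCND1, CCND2 and CCND3 by distance from the annotated 5′ end of each gene along its strand (kb), 1 row per list; each line stands at a peak's centre and its height is the score percentile. CCND3 shows start peaks (black) at both ends of the gene and recurring distal peaks (orange), while CCND1 and CCND2 show few peaks away from their starts.

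The D-type partner kinases differed in rank. CDK6 (chr7:92604921-92836594, minus strand) had its top start peak at percentile 90.6 in PRO-seq 1M (chr7:92836171-92836830), 80.0 in qPRO-seq 1M and 85.8 in qPRO-seq 250k, with centres within 46 bp of the gene's first start. The antisense gene AC002454.1 starts 105 bp away on the other strand, and the same peak covers both. Weaker peaks at starts further inside CDK6 were found in both 1M lists and not in qPRO-seq 250k. At the start at position 92833917 they had percentiles 15.6 (PRO-seq 1M) and 47.9 (qPRO-seq 1M), and at 92835297 they had 43.6 and 15.4.

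CDK4 (chr12:57747727-57756013, minus strand) ranked below CDK6 in both lists where it had a start peak. Its start peak stood at percentile 40.1 in PRO-seq 1M (chr12:57752111-57752560) and 48.0 in qPRO-seq 250k (chr12:57752191-57752580), with the centre at 57752340 in both, 7 bp before an annotated start. This region holds 12 of its 14 distinct starts and lies inside the gene body, since 1 transcript is annotated from further upstream, at 57756013. Neither peak reached the median score of its list. The longest list, qPRO-seq 1M, had no CDK4 start peak. Its nearest peak to that region was 5911 bp away (chr12:57745811-57746200), at the start of TSPAN31. A start peak in qPRO-seq 250k and PRO-seq 1M with none in qPRO-seq 1M was found for 42 protein-coding genes (0.211%). Their median top percentiles were 39.6 in PRO-seq 1M and 21.4 in qPRO-seq 250k, so that CDK4 stood near the middle of them in the first list and above it in the second.

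**Figure D3:**
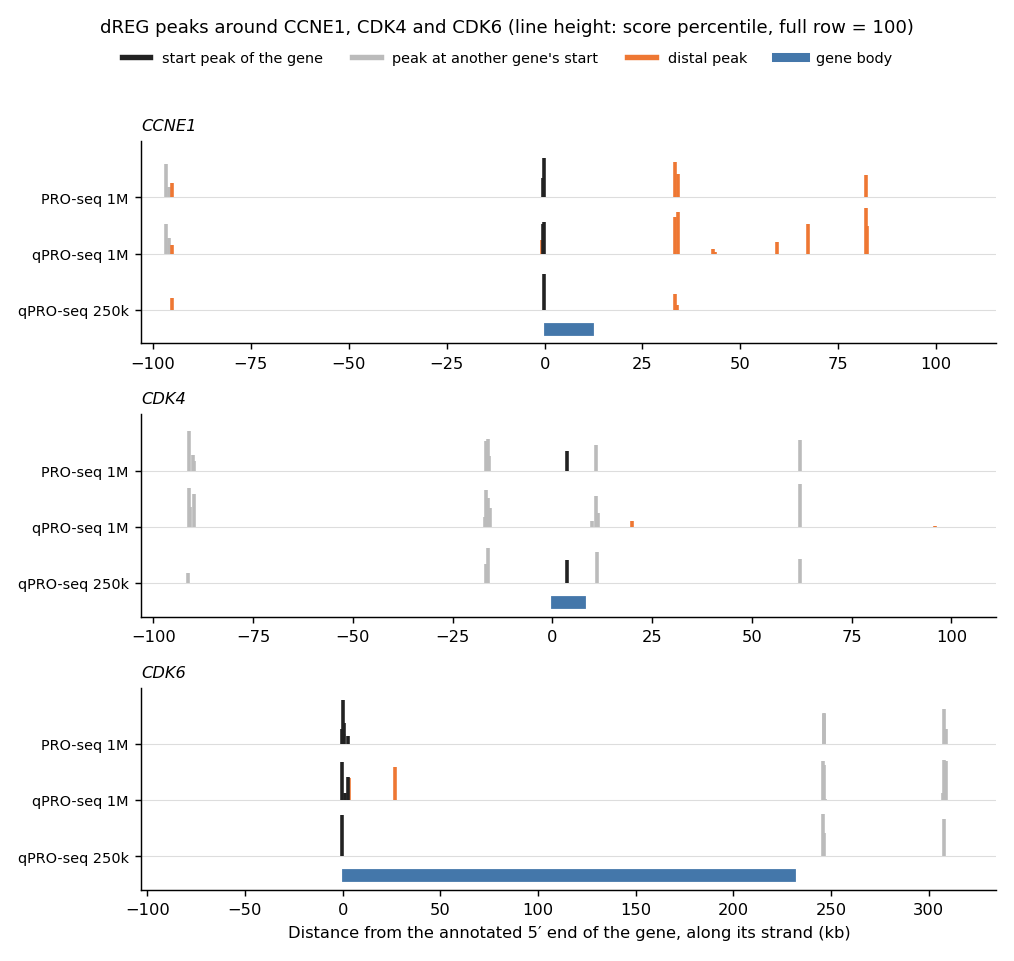
Peaks around CCNE1, CDK4 and CDK6 by distance from the annotated 5′ end of each gene along its strand (kb), 1 row per list; each line stands at a peak's centre and its height is the score percentile. The CDK4 start peak (black) is absent from the qPRO-seq 1M row, and CCNE1 has distal peaks (orange) downstream in every list.

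The E-type cyclins stood close together in PRO-seq 1M and apart in qPRO-seq 250k. CCNE1 (chr19:29811898-29824308, plus strand) had its top start peak at percentile 82.3 in PRO-seq 1M (chr19:29811521-29812080), 65.0 in qPRO-seq 1M (chr19:29811601-29812040) and 75.2 in qPRO-seq 250k (chr19:29811181-29812070). The centres lay 118, 128 and 188 bp before the nearest start. In both 1M lists a second peak adjoined it upstream, at percentiles 41.1 and 62.6, where qPRO-seq 250k had a single peak of 890 bp. No other gene starts within 500 bp of these peaks.

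CCNE2 (chr8:94879770-94896678, minus strand) had top start peaks at percentile 83.6 in PRO-seq 1M, 50.3 in qPRO-seq 1M and 16.0 in qPRO-seq 250k. All 4 peaks at its inner starts also lie within 500 bp of a start of NDUFAF6, an assembly factor of respiratory complex I on the opposite strand. The qPRO-seq 250k peak (chr8:94895541-94895800) is centred 396 bp before the nearest CCNE2 start and overlaps the qPRO-seq 1M peak beside it but no PRO-seq 1M peak. The first annotated start, at 94896678, had a peak near no other gene in both 1M lists, at percentiles 49.1 in PRO-seq 1M and 20.4 in qPRO-seq 1M, and none in qPRO-seq 250k. CCNE2 was thus the E-type paralog without an unshared start peak at 250k cells. It had no start peak in qPRO-seq 1M at equal list lengths, and none in qPRO-seq 250k among peaks at or above the median score.

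CDK2 (chr12:55966769-55972784, plus strand), the partner of both E-type cyclins and of cyclin A2, had 1 start peak in each list. It stood at percentile 79.3 in PRO-seq 1M (chr12:55966471-55967020), 89.1 in qPRO-seq 1M (chr12:55966411-55966970) and 35.7 in qPRO-seq 250k (chr12:55966441-55966870). The centres lay within 49 bp of an annotated start. A start of PMEL, a melanosome protein gene, is annotated 33 bp away on the opposite strand, so every CDK2 start peak is also a PMEL one by this rule. The antisense gene AC025162.1 starts nearby as well and meets it in PRO-seq 1M. Among peaks at or above the median score, CDK2 had none in qPRO-seq 250k. Among the 10 genes, CDK2 was second in qPRO-seq 1M, seventh in PRO-seq 1M and eighth in qPRO-seq 250k.

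The start peaks of the S-phase and mitotic cyclins lay near no other gene's start. CCNB1 ranked first of the 10 genes in every list, and CCNA2 ranked 6th in PRO-seq 1M, 3rd in qPRO-seq 1M and 2nd in qPRO-seq 250k. CCNA2 (chr4:121816444-121823933, minus strand) had its top start peak at percentile 79.8 in PRO-seq 1M (chr4:121823561-121824320), 86.6 in qPRO-seq 1M and 90.7 in qPRO-seq 250k. The centres fell within 20 bp of one another, between 127 and 147 bp before the GENCODE start, over the printed sequence. CCNB1 (chr5:69167010-69178245, plus strand) had its start peak at percentile 96.2 in PRO-seq 1M (chr5:69166641-69167390), 98.8 in qPRO-seq 1M (chr5:69166511-69167490) and 95.4 in qPRO-seq 250k (chr5:69166501-69167310). It was the 938th, 467th and 710th peak of its list. At 750, 980 and 810 bp these were wide peaks beside list medians of 450, 440 and 430 bp. Of the protein-coding genes with a start peak, 91.4%, 96.7% and 91.9% had a lower top peak than CCNB1.

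Start peaks numbered 18 in PRO-seq 1M, 20 in qPRO-seq 1M and 12 in qPRO-seq 250k. At least 2 start peaks were found for 4 of 10 genes in PRO-seq 1M (26.2% of protein-coding genes), 7 of 10 in qPRO-seq 1M (33.6%) and 1 of 10 in qPRO-seq 250k (14.4%). Start peaks near no other gene's start numbered 11, 12 and 6, and they covered 8, 7 and 6 of the genes. Peaks of the 3 lists that overlapped by at least 1 bp were joined into regions. The start peaks fell into 20 regions, of which 10 (50%) had a peak in all 3 lists, against 54.8% of the 15345 regions at protein-coding starts. A further 4 regions were found in both 1M lists, 3 in qPRO-seq 1M alone, 1 in PRO-seq 1M alone, 1 in qPRO-seq 250k and PRO-seq 1M (CDK4) and 1 in both qPRO-seq lists (CCNE2). In the 10 regions of all 3 lists, the centres of the top peaks spanned a median of 70 bp, from 20 bp at CCNA2 to 120 bp at the outer CCND3 peak.

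Distal peaks were concentrated at CCNE1 and CCND3. The 10 genes had 13 distal peaks in PRO-seq 1M, 32 in qPRO-seq 1M and 8 in qPRO-seq 250k, and 9, 18 and 7 of these lay at CCND3 or CCNE1. At least 1 distal peak was found for 6 of 10 genes in PRO-seq 1M (54.0% of protein-coding genes), 9 of 10 in qPRO-seq 1M (75.2%) and 3 of 10 in qPRO-seq 250k (38.0%). CCNE2 had none in any list. The median number per gene was 1, 2 and 0, the same as over all protein-coding genes. CCNE1 had 5, 10 and 3 distal peaks, more than 93.3%, 96.0% and 92.2% of protein-coding genes, and CCND3 had 4, 8 and 4. CCND3 is a long gene, so its window of 315 kb is wider than the 212 kb of CCNE1. Per 100 kb of window, CCNE1 had 2.35, 4.71 and 1.41 distal peaks and CCND3 had 1.27, 2.54 and 1.27, above medians of 0.33, 0.812 and 0 over protein-coding genes. CDK6, with the widest window of 432 kb, had 0, 2 and 0. With each list reduced to its 15562 top-scored peaks, the 10 genes had 9, 8 and 8 distal peaks, so that the higher number in qPRO-seq 1M was not kept at equal list length.

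**Figure D4:**
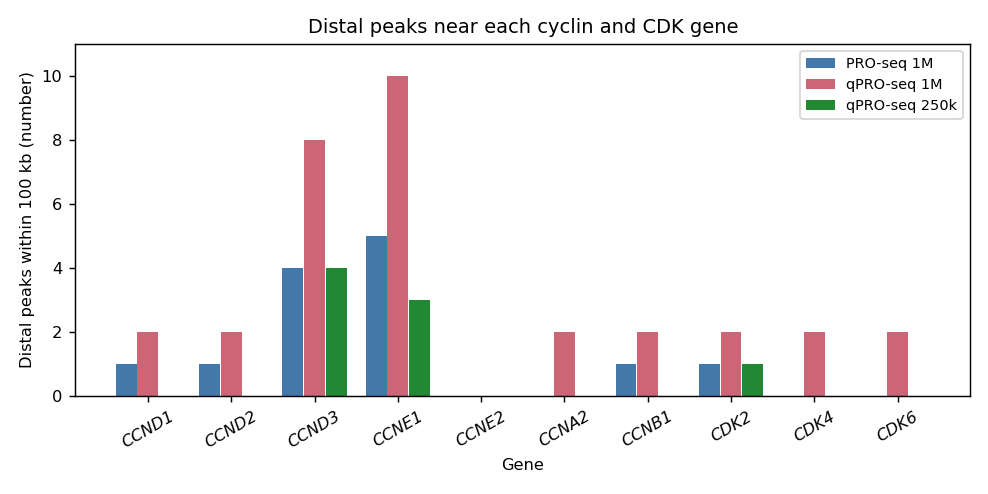
Number of distal peaks (vertical axis) within 100 kb of the body of each gene in PRO-seq 1M, qPRO-seq 1M and the 250k list. CCNE1 with 5, 10 and 3 and CCND3 with 4, 8 and 4 exceed the other genes, which have at most 2 in a list, and CCNE2 has none.

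The distal peaks fell into 30 regions, leaving out 1 qPRO-seq 1M peak that joined the CCNE1 start region. Of these, 7 (23.3%) had a peak in all 3 lists, against 16.2% of the 16938 distal regions, and 17 (56.7%) were found in qPRO-seq 1M alone, against 55.3%. The share found in qPRO-seq 1M alone is near the background. All 7 recurring regions belong to CCND3 (4) or CCNE1 (3). By position, 15 regions were intergenic, 10 intronic and 5 exonic, and for 11 the nearest protein-coding start was that of the gene itself. A distal peak within 100 kb is therefore a neighbour and not an assigned enhancer.

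Downstream of CCNE1, a pair of neighbouring regions, the nearer one 20563 bp past the gene end, was present in all 3 lists, with CCNE1 as the nearest protein-coding gene. The first (chr19:29844871-29845420) had percentiles of 74.2 in PRO-seq 1M, 75.5 in qPRO-seq 1M and 33.8 in qPRO-seq 250k. The second (chr19:29845491-29846160) had 49.6, 86.5 and 9.35. The top distal peak in qPRO-seq 1M for any of the 10 genes lay further out, at chr19:29893581-29894710, where the nearest start is that of URI1. It had percentile 95.1 in qPRO-seq 1M and 45.8 in PRO-seq 1M and was absent from qPRO-seq 250k. The third recurring region (chr19:29716441-29716990, percentiles 28.95, 17.7 and 24.6) lay upstream, 94908 bp from CCNE1 and nearest to C19orf12. Its peaks lay 652 bp (PRO-seq 1M), 762 bp (qPRO-seq 1M) and 802 bp (qPRO-seq 250k) from a C19orf12 start. That is just outside the 500 bp limit, so it may equally be counted with the C19orf12 promoter.

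Inside CCND3, an intronic region at chr6:42028311-42029030 had percentiles of 66.8 in PRO-seq 1M, 91.6 in qPRO-seq 1M and 71.5 in qPRO-seq 250k. In the qPRO-seq lists that placed it above every CCND3 start peak, and in PRO-seq 1M below the downstream start. A neighbour at chr6:42030871-42031400, over an exon of the noncoding gene AL513008.1, had 64.4, 55.5 and 38.4. Upstream, abutting regions in C6orf132 (chr6:42103971-42104410 and chr6:42104421-42104830) also recurred, at 49.3, 71.8 and 46.6 for the first and 57.4, 75.2 and 17.0 for the second.

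The other genes had weaker or unshared distal peaks. CCND1 had one 1847 bp upstream of its start (chr11:69638951-69639240) in both 1M lists, at percentiles 56.1 and 33.7. For CCND2, the top one lay in an intron of CCND2-AS1 (chr12:4269251-4269630), at 40.3 and 32.3 in the same lists. The top CDK6 one was intronic and found in qPRO-seq 1M alone (chr7:92809701-92810060, percentile 69.8). For CCNA2 the top one (chr4:121794251-121795030, 49.9) and for CCNB1 the top one (chr5:69083481-69083740, 45.5) were also in qPRO-seq 1M alone. CDK2 and CDK4 had tops of 19.6 (chr12:56022631-56023140, in IKZF4) and 12.8 (chr12:57735931-57736290, in AGAP2) in qPRO-seq 1M. These peaks lay close to starts of those other genes, 828 bp from IKZF4 and 1546 bp from AGAP2.

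The wider family was described in the same way, with start peaks counted in PRO-seq 1M, qPRO-seq 1M and the 250k list in this order against 52.9%, 54.5% and 44.0% of protein-coding genes. Of 17 other cyclins, 15, 14 and 14 had a start peak. The top ones in qPRO-seq 1M were CCNT1 (99.0), the cyclin of the elongation kinase P-TEFb, CCNH (98.7), the cyclin of the CDK-activating kinase, and CCNL1 (98.0), linked to splicing. CCNA1, the germline paralog of cyclin A, and CCNB3 had none in any list, and CCNO had one in PRO-seq 1M alone (26.9). Of 18 other CDKs, 14, 13 and 11 had one, led by CDK1 (96.8), the mitotic kinase, CDK13 (95.4) and CDK11A (94.9), which has a near-identical copy in CDK11B, so that the placement of reads between them is uncertain. CDK7, CDK15, CDK16 and CDK18 had none in any list. CDK3, CDK8 and CDK14 lacked one in qPRO-seq 250k, and CDK20 in qPRO-seq 1M.

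Of 8 CDK inhibitors, 6, 5 and 5 had a start peak. CDKN2C (p18), which binds CDK4 and CDK6, had the top one (99.8 in PRO-seq 1M, 99.4 in qPRO-seq 1M and 96.6 in qPRO-seq 250k), followed in qPRO-seq 1M by CDKN1A (p21) at 95.8 and CDKN2D (p19) at 93.0. CDKN2A and CDKN2B had none, and the nearest peak to a CDKN2A start was at least 1285247 bp away in each list. The DNA copy number of this locus was not tested. CDKN1C had one in PRO-seq 1M alone (10.8). Of 13 regulators of CDK activity or of cyclin turnover, 12 had one in each list. WEE1 (99.7), the kinase that restrains CDK1, CDC20 (95.4), an activator of the anaphase-promoting complex, and SKP2 (93.9), a ubiquitin ligase subunit that targets p27, led in qPRO-seq 1M. MNAT1, the assembly factor of the CDK-activating kinase, had none in any list.

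**Figure D5:**
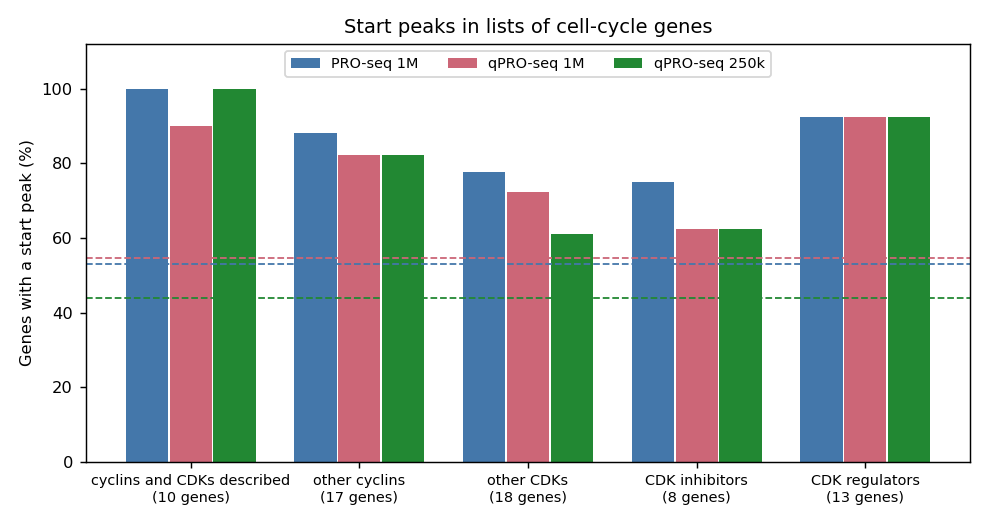
Percent of genes with a start peak (vertical axis) in the 10 genes described and in 4 lists of related genes, in PRO-seq 1M, qPRO-seq 1M and the 250k list; dashed lines give the shares over all protein-coding genes (52.9%, 54.5% and 44.0%). Each list stands above the dashed line of its color.

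The gene most like each of the 9 genes with a start peak in all 3 lists was sought among the 24 other cyclins and CDKs with one, by the mean absolute difference of the 3 top percentiles. CDK17 was closest to CCNA2 (0.974 points), CCNH to CCNB1 (1.32 points) and CCNL2 to CCND3 (1.90 points). CDK9 was closest to both CDK6 (4.54 points) and CCNE1 (6.77 points), and CCNT2 to CDK2 (6.29 points) and CCNE2 (17.8 points). CDK5 was closest to CCND1 at 14.0 points and CDK10 to CCND2 at 21.6 points, so that CCND1, CCND2 and CCNE2 had the most distant matches. The likeness rests on 3 lists and says nothing of shared control.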

How the data were processed

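PRO-seq libraries of K562 cells were represented by 1 deposited dREG peak list per group, which the labels name for both replicates. Whether replicates were pooled, and the version and thresholds of dREG, are not given in the sources used here. The submitters' processing notes name fastp 0.20.0, Bowtie2 2.3.5.1, deepTools 3.1.3, UMI-tools and build hg38 (GRCh38). The score of each peak is the authors' deposited value, with no fixed unit, and was used to rank peaks within a list. The deposited p-value was taken as given, and whether it was adjusted is not stated. A deposited p of 0 occurs at low scores too, so p was not used for ranking.

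Starts in the files count from 0 and are printed from 1. Peaks were assigned to GENCODE release 29 starts with Python 3.11.15 and pandas 2.3.3, and the rule was tested on simulated peaks. Groups were taken from sample titles. The 10 genes, the related lists and the motifs were chosen with earlier results of these data known. With 1 list per group and no value per replicate, no p-value was computed. All 10 genes are named, along with related genes without a start peak in a list, the 3 top ones of each related list, and the top distal region of each gene. Alternatives were a 1000 bp window, p of at most 0.01, scores at or above the median, equal list sizes, merging within 500 bp, coding transcript starts, an overlap of 50% of both peaks, centres within 100 bp and a reach of 50 kb. Some marker genes are not reported here.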

Additional observations from a re-analysis of the deposited data

How the results depend on the processing

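Of 74 alternative counts of peaks, regions and genes, 56 stayed within 1.5 times the value reported and 18 did not. The number of genes with a start peak stayed between 7 and 10, except 6 in qPRO-seq 250k at or above the median score, a limit that removed CCND2, CCNE2, CDK2 and CDK4 there. CDK4 had no qPRO-seq 1M start peak under any alternative. The nearest peak lay 3595 bp from any CDK4 start, beyond the widest window, so the alternatives were no check of this absence. The median limit, which removes peaks by construction, also gave 6 start peaks in qPRO-seq 250k and 12 in qPRO-seq 1M, with distal peaks of 1 (qPRO-seq 250k), 10 (qPRO-seq 1M) and 5 (PRO-seq 1M), 6 start regions and 1 distal region in all 3 lists. Equal list sizes gave qPRO-seq 1M 11 start peaks and 8 distal peaks, fewer than the 9 of PRO-seq 1M, and CCND2 and CCNE2 lost their start peak. A reach of 50 kb gave distal peaks of 5 (qPRO-seq 250k), 21 (qPRO-seq 1M) and 8 (PRO-seq 1M) and 4 distal regions in all 3 lists, by construction. The qPRO-seq 250k distal peaks fell to 5 with the 1000 bp window and with p of at most 0.01, and distal regions in all 3 lists to 4 with that p limit and with merging. Of 108 top percentiles of single genes, 40 moved, all under the median limit or equal list sizes, where the percentile is taken among fewer peaks. Lists hold no value per replicate, so no replicate could be left out. No paired analysis was possible because the lists carry no replicate and the results come from no test.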

Other observations

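The CDK-activating kinase showed an uneven set of start peaks. CCNH had one at percentiles 95.3, 98.7 and 92.4 in PRO-seq 1M, qPRO-seq 1M and the 250k list, while its partners CDK7 and MNAT1 had none in any list. The nearest peak to a CDK7 start was 17805, 17865 and 45085 bp away, and to an MNAT1 start 10112, 10132 and 10012 bp away. CDK16 also had none, with the nearest peak 4977, 4007 and 4157 bp away. These 3 genes were singled out after their values were seen, and a missing peak does not show that a gene is silent.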
